A study of Homo sapiens with 12 samples.

Results

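The regions described here are 508 of the 2846 pooled KQ peaks on chromosomes 1 to 22 and X (17.8%, exact 95% interval 16.5 to 19.3, counting error only). They were chosen by peak position, as those that overlap, by 1 bp or more, no peak in any of the 3 wild-type lists, which are the pooled list and the lists of both single libraries. The other 2338 pooled KQ peaks have such an overlap and are called shared peaks. The cells were MCF10A-NeuT, a human mammary epithelial line transformed with NeuT, an activated form of the rat ERBB2 receptor. All groups carried NeuT and were maintained in serum-containing medium. The PPARg-WT cells stably expressed wild-type PPARγ from a retrovirus, and the PPARg-KQ cells stably expressed the K154/155Q form, whose adjacent lysines were both exchanged for glutamine. Each of these groups had 2 libraries of PPARγ chromatin immunoprecipitation followed by sequencing (ChIP-seq), and vector and input libraries were not analysed here. Separate cultures are not stated for the 2 libraries of a group, so differences between them may be technical. The antibody field names PPARγ and the series' design text names the Flag tag. A PPARγ antibody would also recover the receptor that the cells make themselves. A list of peaks measures no expression, so the mammary identity of the cells was not checked against markers.

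PPARγ is a nuclear receptor that pairs with the retinoid X receptor (RXR) and binds a direct repeat of the core motif AGGTCA with 1 base between the copies, the PPAR response element. Its targets serve lipid storage and fatty acid use, and in epithelial cells it is also tied to differentiation. Acetylation of lysines on the receptor is known to alter which cofactors it recruits. A peak list reports only sites past the caller's threshold, so a site absent from a list can still hold some binding.

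Some of the 508 regions lie at promoters, and 4 of these are shown first because they are the strongest whose summit falls inside a RefSeq start-site window (GRCh38.p14, the assembly of hg38), running from 250 bases before to 50 bases after the gene's start. A further window, that of RPS7, is shown because its gene is on a list used below. COASY makes coenzyme A, IPO4 is a nuclear import receptor, ZFC3H1 takes part in nuclear RNA decay, RELCH acts in cholesterol transport from endosomes, and RPS7 is a protein of the small ribosomal subunit. The windows are COASY on chr17:42561898-42562197 (plus strand), IPO4 on chr14:24188767-24189066 (minus strand), ZFC3H1 on chr12:71663799-71664098 (minus strand), RELCH on chr18:62187005-62187304 (plus strand) and RPS7 on chr2:3575010-3575309 (plus strand). Each is written 5′ to 3′ on the strand of its gene. Capitals mark, on either strand, the nuclear receptor core motif AGGTCA, the ETS site CCGGAAG, the GC box GGGCGG, the CCAAT box and the AP-1 site TGANTCA.
COASY: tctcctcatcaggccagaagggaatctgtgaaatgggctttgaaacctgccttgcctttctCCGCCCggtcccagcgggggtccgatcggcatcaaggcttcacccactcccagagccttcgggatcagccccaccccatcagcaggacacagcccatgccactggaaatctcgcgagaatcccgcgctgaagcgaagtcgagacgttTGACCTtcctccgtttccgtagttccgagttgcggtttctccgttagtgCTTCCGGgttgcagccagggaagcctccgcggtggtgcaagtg
IPO4: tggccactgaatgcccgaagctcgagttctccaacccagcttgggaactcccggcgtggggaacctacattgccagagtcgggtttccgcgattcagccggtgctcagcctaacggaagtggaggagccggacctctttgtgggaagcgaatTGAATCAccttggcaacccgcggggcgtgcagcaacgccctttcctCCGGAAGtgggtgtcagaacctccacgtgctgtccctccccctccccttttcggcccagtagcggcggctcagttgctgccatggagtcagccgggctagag
ZFC3H1: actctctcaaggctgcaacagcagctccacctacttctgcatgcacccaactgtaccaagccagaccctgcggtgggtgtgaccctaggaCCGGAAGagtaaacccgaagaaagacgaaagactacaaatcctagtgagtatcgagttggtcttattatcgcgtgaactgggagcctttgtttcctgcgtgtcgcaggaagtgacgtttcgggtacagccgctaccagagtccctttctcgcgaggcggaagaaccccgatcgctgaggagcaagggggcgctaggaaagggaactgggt
RELCH: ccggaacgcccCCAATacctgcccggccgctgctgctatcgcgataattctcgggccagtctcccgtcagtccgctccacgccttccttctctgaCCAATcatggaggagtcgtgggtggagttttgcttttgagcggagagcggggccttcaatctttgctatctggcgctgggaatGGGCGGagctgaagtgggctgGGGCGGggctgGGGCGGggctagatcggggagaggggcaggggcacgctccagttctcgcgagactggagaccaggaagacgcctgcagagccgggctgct
RPS7: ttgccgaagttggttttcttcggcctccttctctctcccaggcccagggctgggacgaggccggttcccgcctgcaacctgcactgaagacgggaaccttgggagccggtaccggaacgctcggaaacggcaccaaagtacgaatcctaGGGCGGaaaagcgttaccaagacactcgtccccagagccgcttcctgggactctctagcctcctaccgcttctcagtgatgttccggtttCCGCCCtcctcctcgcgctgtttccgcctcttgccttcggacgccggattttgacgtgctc
Counted from the first base shown, the peak summit lies at base 188 in the COASY window, 137 in IPO4, 181 in ZFC3H1, 177 in RELCH and 234 in RPS7. The RELCH window lies head to head with that of PIGN, and the summit lies in both windows.

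The fold enrichment, −log10 p and −log10 q quoted throughout are the authors' values from the peak caller at each summit. The −log10 q is column 9 of the lists and is used here to compare peaks of like strength. For this, the regions were cut into 10 bins at their own deciles of −log10 q, and shared peaks were weighted so that each bin counted as much as it does among the 508 regions. The 144 shared peaks above the highest −log10 q of the regions, 19.3, were left out of these weighted values. Peaks are not replicates of a condition, so the comparisons below are descriptions of these lists, with intervals that cover counting error only, and no test was run over peaks.

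The regions were mostly weak peaks of the KQ list. Their −log10 q ran from 1.34 to 19.3 with a median of 5.13 (95% interval 5.00 to 5.52), against a median of 7.48 for shared peaks, whose values reached 62.0. In the weakest of 10 bins of the whole KQ list 94 of 282 peaks (33.3%, 27.9 to 39.2) had no wild-type overlap, and in the strongest bin 5 of 288 (1.74%, 0.566 to 4.00). The share fell from bin to bin except between the second bin (24.3%) and the third (31.3%). The rule used peak position and not −log10 q, but these shares count membership itself and are given as a description.

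**Figure D1:**
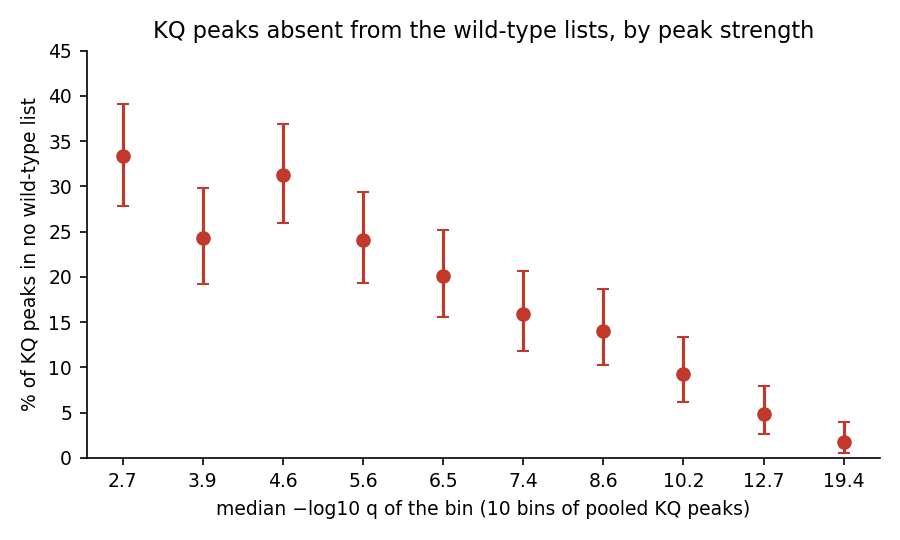
Share of pooled KQ peaks that overlap no wild-type list (vertical axis, percent) in 10 bins of the KQ list by −log10 q (horizontal axis, labelled with the median of each bin). Points are shares and bars exact 95% intervals; the share is 33.3% in the weakest bin and 1.74% in the strongest.

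Fold and p of each peak fix the number of ChIP tags at the summit and the background the caller compared them with, and both were recovered for every peak of the list. The regions held between 9 and 40 tags at the summit, with a median of 19 (18 to 19), and shared peaks held between 10 and 86 with a median of 26. At like −log10 q the shared median was 23. The local background was also lower, at a median of 3.43 tags (3.26 to 3.43) against 4.80 for shared peaks of like −log10 q and 4.73 for all shared peaks. The medians of tags and of background were lower in the regions in all 10 bins, and the median fold was higher in all 10. These 3 comparisons are linked, because −log10 q is computed from tags and background. The median fold was 4.69 (4.58 to 4.78) in the regions, 4.20 in shared peaks of like −log10 q and 4.88 in all shared peaks. The regions were also narrower, with a median width of 188 bp against 197 bp at like −log10 q.

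**Figure D2:**
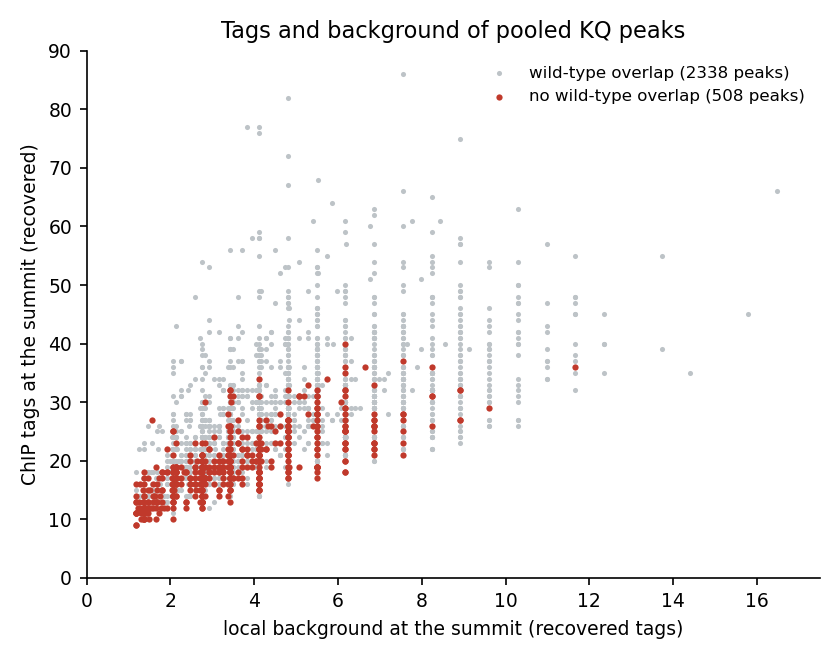
ChIP tags at the summit (vertical axis) against the local background at the summit (horizontal axis), both in tags recovered from the authors' fold and p, for each pooled KQ peak. The regions without wild-type overlap (red, 508) lie between 9 and 40 tags, and shared peaks (grey, 2338) reach 86.

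The recovered background differed between the pooled lists that were compared. The pooled wild-type list had 25164 peaks. The median background was 4.12 tags in the pooled KQ list and 1.98 in the pooled wild-type list, and the median number of tags at a summit was 25 and 18. The lowest count at a called summit was 9 tags for KQ and 5 for wild type. The part that this difference has in the absence of the regions from the wild-type lists was not tested.

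The 2 wild-type libraries differed in how many KQ peaks they held. Of the 2846 pooled KQ peaks, 1612 overlapped a peak in both wild-type libraries, 425 in library 1 only, 182 in library 2 only and 119 in the pooled wild-type list only. Without wild-type library 1, judged by the list of library 2 alone, 1052 KQ peaks had no overlap, and without wild-type library 2 there were 809. The number 508 is therefore a property of these lists, and it was 557 against the pooled wild-type list alone.

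Few of the regions were found again in both KQ libraries. Only 10 of the 508 (1.97%, 0.948 to 3.59) overlapped a peak in both KQ libraries, against 12.4% of all pooled KQ peaks, 14.7% of shared peaks and 3.55% of shared peaks of like −log10 q, a value inside the interval. With 5 bins in place of 10 the value at like −log10 q was 4.51%, above the interval, and with 20 bins it was 3.12%, inside the interval. When a wild-type library was left out, the value with 10 bins lay above the interval. It was 6.49% against 3.23% (2.25 to 4.49) without library 1 and 4.76% against 2.47% (1.52 to 3.79) without library 2. In neither library were 323 regions found (63.6%, 59.2 to 67.8), against 45.5% of all pooled KQ peaks and 57.6% of shared peaks of like −log10 q, which lies just below the interval. This share was higher in the regions in 8 of the 10 bins. Another 175 regions were found in exactly 1 library, 98 in library 1 and 77 in library 2. Of the 10 found in both libraries, 8 were among the 52 regions of the strongest bin. In that bin 15.4% of the regions (6.88 to 28.1) and 26.4% of shared peaks were in both, the latter value inside the interval.

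The single libraries gave a comparison in which the other library had no part in choosing the peaks. Of the 1263 peaks of KQ library 1, 199 (15.8%) overlapped no wild-type list, and 10 of these (5.03%, 2.44 to 9.05) were found in library 2. Peaks of library 1 with wild-type overlap were found in library 2 at 32.3%, and at 23.8% when weighted to like −log10 q. Of the 1035 peaks of KQ library 2, 185 (17.9%) overlapped no wild-type list, and 10 of these (5.41%, 2.62 to 9.72) were found in library 1. The corresponding values with wild-type overlap were 40.4% and, at like −log10 q, 31.1%. In both directions the value at like −log10 q lay above the interval of the peaks without wild-type overlap. Both directions count overlaps between the same lists, so they are not independent. The counts were 10 and 10 without wild-type overlap, and 344 and 343 with it.

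**Figure D3:**
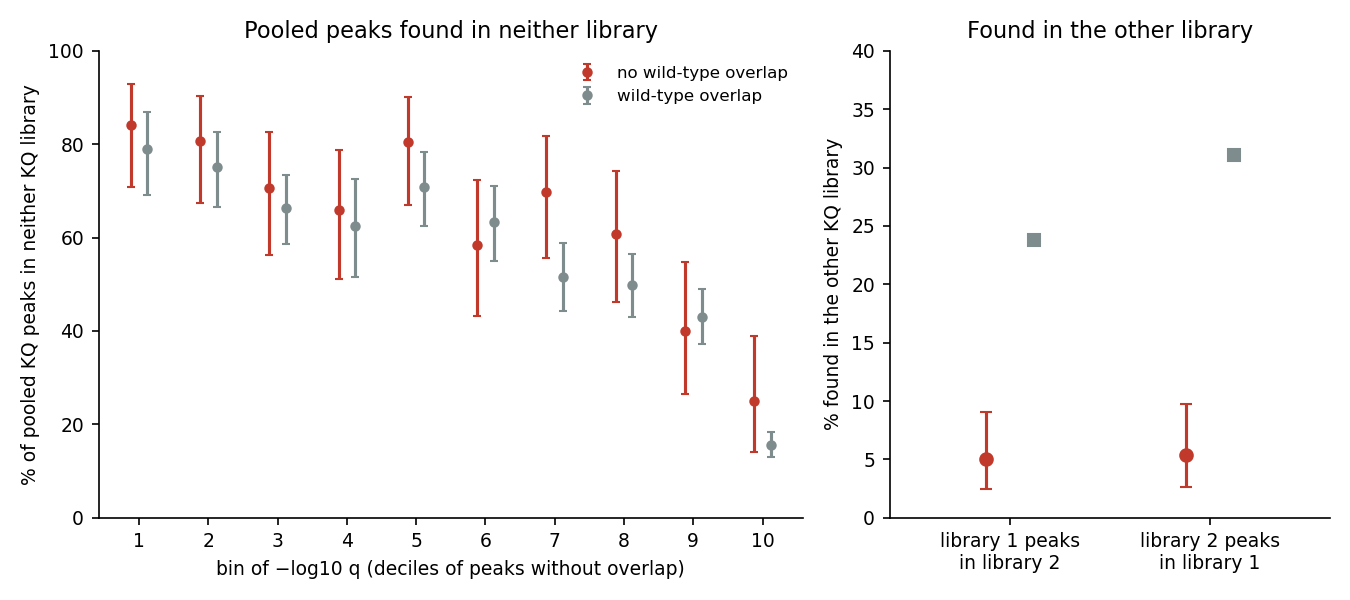
Left, percent of pooled KQ peaks found in neither KQ library (vertical axis) in 10 bins of −log10 q (horizontal axis) for the regions without wild-type overlap (red) and shared peaks (grey), with exact 95% intervals. Right, percent of the peaks of 1 KQ library found in the other: red circles with intervals are peaks without wild-type overlap (5.03% and 5.41%), grey squares are peaks with overlap weighted to like −log10 q (23.8% and 31.1%).

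The 10 regions found in both KQ libraries lay near genes of varied function, and 9 of them lay between protein-coding genes. The strongest by −log10 q, 30.7 kb outside SPRED1 (chromosome 15, 38221964 to 38222253), had a −log10 q of 15.6 in the pooled list, 8.34 in library 1 and 7.03 in library 2. SPRED1 restrains signalling from Ras to MAP kinase. The region 3.6 kb outside the delta-tubulin gene TUBD1 (chromosome 17, 59855644 to 59855989) had 15.1, 6.92 and 7.03 in the same order. The region 36.3 kb outside BCAS1, a gene named for its amplification in breast carcinoma, had 14.3, 9.03 and 4.39. In all 3 the value was higher in the pooled list than in either library. Nearest to EEPD1, at 104.9 kb, a region on chromosome 7 (36048180 to 36048468) had 14.5, 3.90 and 6.60.

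The remaining 6 were weaker in the pooled list, with −log10 q between 6.46 and 12.6. They were nearest to LOC124902536 (12.6), PAXBP1 (12.2), PRKCH (11.3), PPP1R21 (9.49), SLC35C1 (8.45) and SOX2 (6.46). PRKCH is a protein kinase C of epithelia, SLC35C1 carries GDP-fucose into the Golgi, and SOX2 is a transcription factor of stem cells. The SOX2 region lay 498.2 kb from that gene, and the PPP1R21 region was the single one inside a gene. The PAXBP1 region (chromosome 21, 32771801 to 32772269) lay 0.35 kb outside the gene and had 7.83 in library 1 and 5.36 in library 2.

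**Figure D4:**
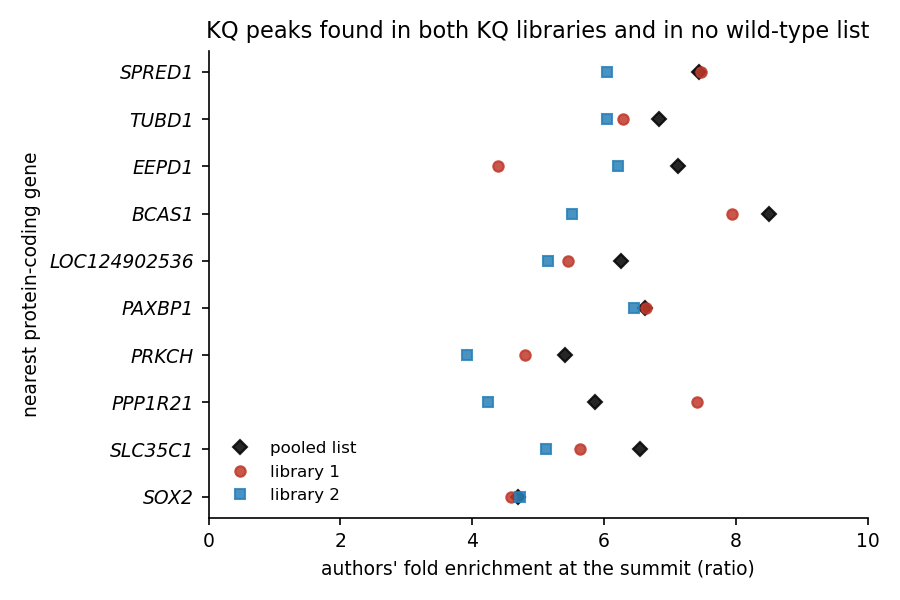
The authors' fold enrichment (horizontal axis, a ratio) in the pooled KQ list (black diamonds), library 1 (red circles) and library 2 (blue squares) for the 10 regions found in both KQ libraries, named by the nearest protein-coding gene (vertical axis) and ordered by −log10 q. Pooled values run from 4.69 near SOX2 to 8.50 near BCAS1.

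Nearness to a wild-type peak varied widely. The median gap from a region to the nearest peak of any wild-type list was 16.5 kb (13.9 to 18.8), with quartiles of 4.62 and 40.7 kb. Leaving out wild-type library 1 moved the median to 25996.5 bp, and leaving out library 2 moved it to 27006 bp. For comparison, the median gap between a pooled wild-type peak and the next nearest peak of that list was 15.3 kb, and the regions lay a median of 20.8 kb from that list. A wild-type peak lay within 1 kb of 38 regions (7.48%) and within 200 bp of 15. The closest were a region inside COL14A1, 19 bp from a wild-type peak, and one inside TGFBR3, 26 bp away with a fold of 6.29. Those nearest to TRIB1, inside PRKG1 and inside MECOM followed at 31, 35 and 47 bp. On the other side of the rule, the shared peaks with the least overlap were nearest to RAB4A and TCIM, each with 3 bp, and that nearest to ANGPTL4 had 6 bp. ANGPTL4, an inhibitor of lipoprotein lipase, is a standard PPAR target. TGFBR3 is a co-receptor for TGF-beta.

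Of the 10 regions found in both KQ libraries, 5 lay within 10 kb of a wild-type peak. The PRKCH region was 0.44 kb from a pooled wild-type peak of fold 5.26, and the TUBD1 region 1.93 kb from a peak of wild-type library 1. A further 3 were over 50 kb away, near SLC35C1 (80.8 kb), SOX2 (96.3 kb) and PAXBP1 (235.5 kb).

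Only 44 of the 508 regions (8.66%) lay over 100 kb from any wild-type peak, and 30 of these lay between genes. The PAXBP1 region was the only one of the 44 found in both KQ libraries. The farthest lay inside ALG10, 1267 kb from a wild-type peak (chromosome 12, 34022323 to 34022510, −log10 q 7.17), and was found in library 1. It was followed by regions inside ELMO1 (549.2 kb), nearest to LOC105373397 (507.2 kb), inside TECRL (500.4 kb) and nearest to ARAP2 (482.8 kb), none of them found in a single library. ALG10 adds glucose to the sugar precursor of N-glycans, and ELMO1 acts in cell engulfment and migration.

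**Figure D5:**
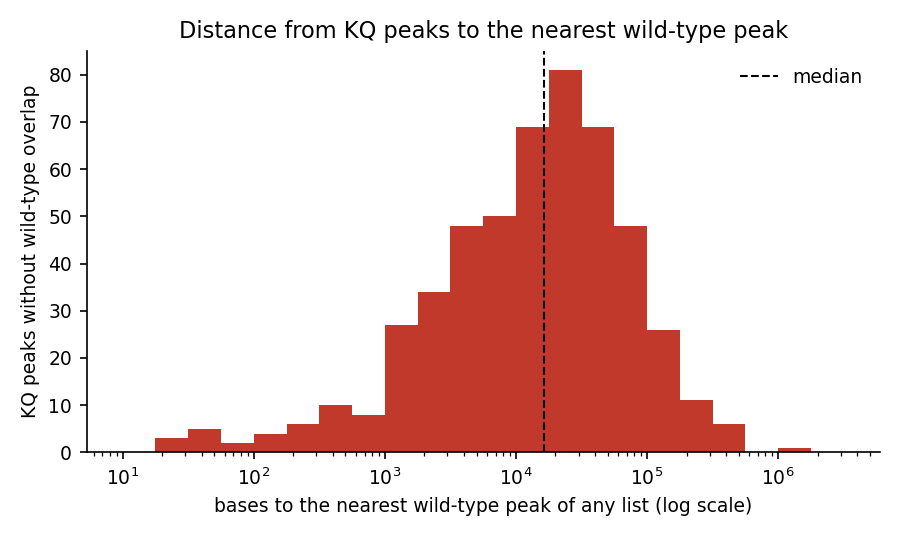
Number of regions (vertical axis) by the distance in bases from the region to the nearest wild-type peak of any list (horizontal axis, log scale). The dashed line is the median, 16.5 kb; 38 regions lie within 1 kb and 44 over 100 kb away.

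The regions did not form dense groups. Another of the 508 lay within 100 kb of 26 regions (5.12%, 3.37 to 7.41), which made 13 pairs. Among shared peaks of like −log10 q, 8.22% had one of the 508 within 100 kb. Any other pooled KQ peak lay within 100 kb of 163 regions (32.1%, 28.0 to 36.3), against 37.5% of all pooled KQ peaks and 36.9% of shared peaks of like −log10 q. Both values at like −log10 q lay above the intervals of the regions. The first comparison did not hold without a wild-type library, at 15.5% (13.4 to 17.8) against 16.8% without library 1 and 12.5% (10.3 to 15.0) against 12.8% without library 2. In the lists of the single KQ libraries it ran the other way, with 3.24% against 2.70% in library 2 and 5.03% against 3.55% in library 1. At most 4 regions, the region itself included, lay within 1 Mb of any one of them. Of the 497 genes that held or were nearest to a region, 19 had more than 1.

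Close pairs lay near CYP1B1 and MAP3K4. The CYP1B1 pair lay 2.05 kb apart on chromosome 2 (38174673 to 38174836 and 38176727 to 38176957), 98.6 and 100.7 kb outside this gene of oestrogen and xenobiotic oxidation. Its −log10 q values were 4.09 and 9.76. The MAP3K4 pair, near a kinase of the stress-activated MAP kinase pathway, lay 10.7 kb apart, with 6.12 and 5.79. None of these 4 regions was found in both KQ libraries.

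By chromosome, the share of pooled KQ peaks without wild-type overlap ran from 2 of 27 on chromosome 21 (7.41%, 0.910 to 24.3) to 18 of 70 on chromosome 16 (25.7%, 16.0 to 37.6). Chromosome 17 had 25 of 105 (23.8%) and chromosome 4 had 35 of 148 (23.6%, 17.1 to 31.3). The interval of each of these 4 chromosomes includes the 17.8% of the whole list.

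Relative to genes, 213 summits (41.9%, 37.6 to 46.4) lay inside a protein-coding gene, against 46% of all pooled KQ peaks and 47.2% of shared peaks of like −log10 q. The latter value was above the interval by less than 1 percentage point. The other 295 (58.1%) lay between genes. In the single KQ libraries the value between genes at like −log10 q lay inside the interval, at 53.0% against 55.1% (47.7 to 62.4) in library 2 and 54.6% against 61.3% (54.2 to 68.1) in library 1. When a wild-type library was left out it lay below the interval, at 52.3% against 56.7% (53.6 to 59.7) without library 1 and 51.7% against 58.2% (54.7 to 61.6) without library 2. Of the 295, 96 lay over 100 kb from any protein-coding gene, which is 18.9% of the 508 (15.6 to 22.6). The share was 16.8% of all pooled KQ peaks and 16.1% of shared peaks of like −log10 q, which lies inside the interval. A distance over 500 kb was seen for 22 regions and was not computed for other KQ peaks. The annotation used here gave no exons, so introns, exons and untranslated regions were not told apart.

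Start sites were available for 477 of the 508 regions, since the table used here holds none on chromosome 8, and for 15812 of the 19974 protein-coding genes. A start site lay within 1 kb of 32 of the 477 summits (6.71%, 4.63 to 9.34), against 5.56% of all pooled KQ peaks and 5.12% of shared peaks of like −log10 q, which lies inside the interval. Without wild-type library 2 the share was 8.22% of 754 (6.36 to 10.4) and the value at like −log10 q, 4.16%, lay below the interval. Without wild-type library 1 it lay inside, at 5.17% against 6.06% (4.66 to 7.73). It also lay inside in the single KQ libraries, at 4.91% against 5.06% (2.34 to 9.38) in library 2 and 5.19% against 6.91% (3.73 to 11.5) in library 1. Of the 32 summits near a start site, 27 lay at or upstream of the start and 25 within 350 bp. None of the 32 was found in both KQ libraries, 11 were in 1 library and 21 in neither. The PAXBP1 region, found in both, lay 0.35 kb outside its gene. Its nearest start site in the table was that of EPCIP, 41.6 kb away. Whether it lies at a start of PAXBP1 was not settled by this table. The median distance of the 32 to a wild-type peak was 35.3 kb, and 5 were over 100 kb away. Counting either end of a gene in place of start sites, 38 of the 508 (7.48%) lay within 1 kb, against 5.67% at like −log10 q.

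The 6 strongest of the start-site regions, those among the highest 20% by −log10 q, were at TMEM245 (16.0), COASY (14.6), FGF21 (10.5), IPO4 (10.1), ZFC3H1 (8.74) and RELCH (8.63). The TMEM245 region lay 268 bp before the start (chromosome 9, 109120109 to 109120311) and had 30 tags over a background of 2.81. It had a −log10 q of 4.69 in library 2 and was not in the list of library 1. The COASY region lay 63 bp before the start (chromosome 17, 42561991 to 42562176) and held the most tags of the 508, 40 over a background of 6.18. In library 1 its −log10 q was 16.1, and library 2 did not list it. The IPO4 and ZFC3H1 regions were in neither library, and the RELCH region was in library 2 alone (7.03). So none of these 6 was listed in both libraries. Summits within 1 kb of a gene end added 4 regions of the highest 20%, at PAXBP1 (described above), BCAN (9.90), CCAR2 (8.88) and ANGEL1 (8.41). CCAR2 restrains the deacetylase SIRT1, and its region on chromosome 8, 190 bp outside the gene, was in neither library.

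FGF21, a hormone gene that PPAR receptors regulate in liver and fat, had the third strongest of these regions. It lay 479 bp after the start (chromosome 19, 48755904 to 48756104), with a fold of 6.17 and 26 tags. The −log10 q was 6.64 in library 1, and library 2 did not list it. The pooled wild-type list had 0 peaks within 50 kb of FGF21, and the nearest peak of any wild-type list, in library 2, lay 13.5 kb from the region.

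In the start-site windows printed above, the COASY window held 1 core motif, 1 ETS site and 1 GC box. The IPO4 window held 1 ETS site and 1 AP-1 site, that of ZFC3H1 1 ETS site, that of RELCH 3 GC boxes and 2 CCAAT boxes, and that of RPS7 2 GC boxes. Of the 508 summits, 22 fell inside such a window, and 1 window was counted for each. Motifs were searched over all 300 bases of a window, so a counted motif can lie outside the peak. The full response element AGGTCANAGGTCA was in 0 of the 22, in 0 of the 74 windows of shared peaks and in 5 of all 22132 windows (0.0226%). The looser form AGGNCANAGGNCA was in 0, 1 and 63 windows of the same sets. The core motif AGGTCA was in 3 of 22 (13.6%), 3 of 74 (4.05%) and 11.9% of all windows. The ETS site CCGGAAG was in 9 of 22 (40.9%), 18 of 74 (24.3%) and 12.8% of all windows. No intervals were computed for these shares, and 22 windows are few. The other motifs searched on both strands were the GC box (12 of 22, against 56.3% of all windows), the CCAAT box (6, 34.6%), the cyclic AMP response element TGACGTCA (2, 2.26%) and the AP-1 site (2, 6.15%). The core motif is part of the full response element. Median GC content was 59.2% in the 22 windows and 62.3% in all windows.

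Among genes of known PPAR function, far more had a shared KQ peak than one of the regions. Of 19974 protein-coding genes, 691 (3.46%) had one of the 508 regions within 50 kb of the gene span, 13.8% had a shared KQ peak, and 16.4% had a pooled KQ peak of either kind. Of the 691 genes, 170 (24.6%) also had a shared KQ peak, and 89.1% had a wild-type peak of some list in the same window, against 75.5% of all genes. Longer genes have wider windows, and gene length was not matched in this comparison. Of the 50 genes of PPAR targets and fatty acid use, 34 (68%, 53.3 to 80.5) had a shared KQ peak and 4 (8%, 2.22 to 19.2) had a region without wild-type overlap. The 4 were FGF21, ACSL1, CD36 and TXNIP. ACSL1 activates long-chain fatty acids, CD36 takes them up, and TXNIP restrains glucose uptake.

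The ACSL1 region lay inside the gene (chromosome 4, 184813528 to 184813709), with a −log10 q of 11.6 in the pooled list and 7.88 in library 2, and was not listed in library 1. It lay 1.70 kb from a wild-type peak, and the pooled wild-type list had 7 peaks in the window of this gene. The CD36 region (chromosome 7, 80615121 to 80615284, −log10 q 7.95) lay inside its gene, where the window also held 3 shared KQ peaks and 9 pooled wild-type peaks. The TXNIP region (7.61) lay 39.1 kb outside. Neither of these was listed in a single KQ library. FGF21 thus differed from the other 3 genes in that the pooled wild-type list had no peak in its window. The list of wild-type library 2 did have a peak, 13.5 kb from the FGF21 region, and gene length was not matched.

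On the other lists between 0 and 3 genes had a region. The exact interval of the share of each list included the 3.46% of all protein-coding genes. Adipocyte differentiation had 1 of 29, DGAT2, which makes triglyceride, whereas 10 of 29 had a shared KQ peak. The region lay 45.5 kb outside DGAT2, was nearest to MOGAT2 and had a −log10 q of 2.91. It was in neither KQ library. Nuclear receptors and coregulators had 2 of 30, PPARD and NRIP1. The PPARD region lay inside the gene of this second PPAR (chromosome 6, 35370453 to 35370676), with 7.75 in the pooled list and 2.64 in library 1. NRIP1 is a corepressor of nuclear receptors, and its region (4.33), 18.0 kb outside the gene, was in neither library. Basal mammary epithelium had 2 of 24 (8.33%, 1.03 to 27.0), CAV1 and COL17A1, and 8 with a shared peak. Luminal mammary epithelium had 0 of 25 (0%, 0 to 13.7) and 7 with a shared peak. These intervals overlap. The CAV1 region (2.21) lay 49.2 kb outside the gene and was in neither library. The COL17A1 region (3.29) lay 35.2 kb outside, was nearest to SFR1 and was in 1 library.

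Growth factor signalling had 2 of 30, among them EREG, which encodes a ligand of the EGF receptor, with a region (5.30) 26.1 kb outside the gene. Mesenchymal transition and matrix had 1 of 26, TGFBR2, a TGF-beta receptor, with a region inside the gene (8.51 in the pooled list, and listed in library 2). Inflammatory mediators had 2 of 25, IL6R, with a region inside the gene (2.40), and CXCL1, with a region 20.8 kb outside (6.58). Cell cycle genes and neuron markers had 0 of 25 and 0 of 24, and ribosomal proteins had 3 of 30, RPS7, RPL9 and RPL3. The RPL9 region (4.28) lay 39.7 kb outside the gene, nearest to UGDH, and the RPL3 region (5.05) lay 3.96 kb outside. Both were in neither library. Ribosomal proteins were the single list with more genes near a region (3, 10%, 2.11 to 26.5) than near a shared KQ peak (2, 6.67%, 0.818 to 22.1). These intervals overlap widely, so the counts do not set this list apart. The RPS7 region lay 17 bp before the start shown above, held 31 tags over a background of 8.24, and had a −log10 q of 5.43 in the pooled list and 7.46 in library 2. Over all 310 genes of the lists, 17 (5.48%, 3.23 to 8.64) had a region within 50 kb. The 3.46% of all protein-coding genes lies inside this interval.

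The regions with the highest −log10 q that the text has not yet described were found in 1 KQ library each. The highest of all, nearest to GULP1 at 309.0 kb (chromosome 2, 187982777 to 187983007), had 27 tags over a background of 1.55 and a −log10 q of 19.3 in the pooled list and 14.3 in library 1. GULP1 is an adaptor in the clearance of dying cells. A region inside the dynamin gene DNM3 (chromosome 1, 172359777 to 172360073) had 15.6 and, in library 1, 16.4, and a region inside MYO18B (chromosome 22, 25759867 to 25760129) had 14.3 and, in library 2, 8.19. A region 8.8 kb outside LOC124901868 on chromosome 8 had 14.6 and, in library 1, 6.49. Of the 10 regions with the highest −log10 q, 4 were thus in both libraries and 6 in 1, and 8 lay between genes.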

How the data were processed

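PPARγ ChIP-seq peak lists were used for 2 PPARg-WT and 2 PPARg-KQ libraries, with 1 pooled list per group. Bowtie2 (version 2), MACS2 and the build hg38 are named per the submitters' processing notes. Settings of the caller, and whether input served as control, are not stated there. The deposited lists give the fold enrichment, a ratio made by the authors, and the −log10 of p and q (p-value and q-value) that the authors' caller assigned to each summit. Tags t and background b were recovered from fold = (t + 1)/(b + 1) and the Poisson p, within 0.001 on the −log10 p for 100% of peaks; 66.5% of the recovered backgrounds of the pooled KQ list were whole multiples of 0.686 tags (tolerance 0.002 tags). Total reads were not used here.

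Only the peak intervals enter the overlaps (at least 1 bp). Intervals for shares are exact (Clopper-Pearson, 95%), those for medians are from order statistics, and both cover counting error only. Gene spans were those of RefSeq on GRCh38.p14 (19974 protein-coding genes on these chromosomes; all 310 list genes matched), start sites from the RefSeq promoter table. Genes were named by rule: nearest or containing genes of the 10 regions of highest −log10 q, of those in both KQ libraries, of regions within 1 kb of a start site or gene end among the highest 20%, of the 3 closest pairs, of the 5 nearest to and farthest from a wild-type peak, plus list genes within 50 kb; a few results under this rule are not reported here. No group of more than 2 regions lay within 100 kb, so the closest pairs stand for the densest groups. Edge cases of the rule (RAB4A, TCIM, ANGPTL4) were named after their values were seen. The regions and lists were chosen with earlier results of these data known. No test was run. Code was tested on simulated data (Python 3.11.15, numpy 2.4.6, pandas 2.3.3, scipy 1.17.1).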

Additional observations from a re-analysis of the deposited data

How the results depend on the processing

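No paired analysis was possible because the results come from no test. Requiring a −log10 q of at least 2, extending wild-type peaks by 200 bp, asking for 50% cover, using the pooled wild-type list only or wild-type peaks with a −log10 q of at least 2 left between 493 and 563 regions. Leaving out 1 library at a time gave 185 to 1052 regions, with 3.24 to 15.5% having another region within 100 kb, a median gap of 15993 to 27006 bp and a median fold of 4.65 to 5.64. Without a wild-type library the list of the other one was used alone, and without a KQ library its partner's list replaced the pooled one, so presence in both KQ libraries was not computed there. Within 10 kb 0.787% and within 1 Mb 34.4% of regions had another region. A start site lay within 5 kb of 12.6%. In a 5 kb gene window 8 list genes had a region. The share found in the other KQ library lay between 5.03 and 5.68% under the alternatives run. The use of gene ends was chosen after seeing the data. Summits of the regions held as few as 9 tags, which limits what absence from a list can show.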
